A study of Arabidopsis thaliana with 4 samples.

Results

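The mitochondria-encoded genes of Arabidopsis thaliana roots were described as the 122 rows, of 27655 in the deposited table, whose identifiers start with ATMG. Roots of Col-0 seedlings grown for 8 days on 5 µM phosphate (low_Pi, 2 libraries) were set against roots grown for 8 days on 625 µM phosphate (plus_Pi, 2 libraries). Both groups were wild type and Columbia, and they differed in the labels by phosphate alone; the title of the table calls the roots dark grown, which no label states. Libraries were made from RNA selected with oligo(dT) beads, so the values cover only the part of each organellar RNA that this selection carried along. The study concerns cis-zeatin, a cytokinin, in the root response to phosphate starvation.

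Plant mitochondria keep a small genome of their own. It encodes core subunits of the respiratory chain and ATP synthase, some ribosomal proteins, factors for attaching haem to c-type cytochromes, ribosomal and transfer RNAs, and many open reading frames of unknown function. Nearly all other mitochondrial proteins, including those that transcribe, edit and splice mitochondrial RNA, are encoded in the nucleus. In plant mitochondria, unlike the cytosol, a poly(A) tail usually marks an RNA for degradation, so the selected RNA need not mirror the total RNA of a mitochondrial gene. The nuclear genome of the Columbia accession also carries a large insertion of mitochondrial DNA on chromosome 2.

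Column totals ranged from 38831704 to 44635953. Read as counts, the 2 columns of each group were close to each other: chi-square per gene was 0.284 for low_Pi and 0.432 for plus_Pi, where independent counts give about 1, and 222 between the first columns of both groups. Over the mitochondrial rows it was 0.568 within low_Pi (23 rows), 0.37 within plus_Pi (24 rows) and 11.5 between the groups. The columns of a group thus differed by less than the sampling noise of counts of this size. Values scaled down from a greater depth would also give less than 1, and the depth is unknown, so whether the libraries of a group are independent cannot be told from the table. Each group was counted as 1 sample, and no difference below has a replicate check, an SD or a p-value of its own. All 7 root markers were above 0 in every column, and their groups were separate in both directions. The root hair genes EXPA7 and SHV2 had 5260 and 5008, and 5022 and 4661, in low_Pi columns against 1493 and 1677, and 1428 and 1649, in plus_Pi columns, and the endodermal gene CASP1 was also higher in low_Pi. The root cap gene SMB (179 and 171 in low_Pi columns against 394 and 442 in plus_Pi columns), the quiescent centre gene WOX5 (54 and 51 against 122 and 137), SCR and SHR were lower. The 7 summed to 25451 and 23741 in low_Pi columns against 14352 and 15975 in plus_Pi columns. The 5 green tissue markers were also above 0, with a summed value of 1655 and 1510 in low_Pi columns against 2921 and 3191 in plus_Pi columns. The part of either marker list in the results below was not tested. In bulk roots, fewer cells of a type and less RNA per cell cannot be told apart.

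Mitochondria-encoded genes made up a small and similar share of both groups. All 122 rows together held 258.48 and 260.35 parts per 1000000 (ppm) of the column total in low_Pi replicates 1 and 2, against 241.87 and 239.94 in plus_Pi replicates 1 and 2. The low_Pi share was thus 1.08 times the plus_Pi share, with both low_Pi columns above both plus_Pi columns. This small excess came from 1 row. ATMG00030, an identifier to which the annotation used here gives no name or role, had values of 8743 and 8091 in low_Pi columns against 7144 and 7786 in plus_Pi columns. It held 80.4% and 80.0% of the summed mitochondrial value in low_Pi and 72.8% and 72.7% in plus_Pi.

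The sum of the other 121 rows lay on the other side. It was 2131 and 2019 in low_Pi columns against 2672 and 2924 in plus_Pi columns, or 50.65 and 51.99 against 65.84 and 65.51 ppm. The low_Pi share of these rows was 0.782 times the plus_Pi share, while that of ATMG00030 was 1.19 times. A share also depends on every other gene in the column. The median gene was itself lower in low_Pi, as given below. With median-of-ratios scaling, which sets the median of all genes to no difference, the summed mitochondrial value was 1.24 times as high in low_Pi as in plus_Pi. Most of that sum was ATMG00030, and the sum of the other 121 rows was not scaled on its own.

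**Figure D1:**
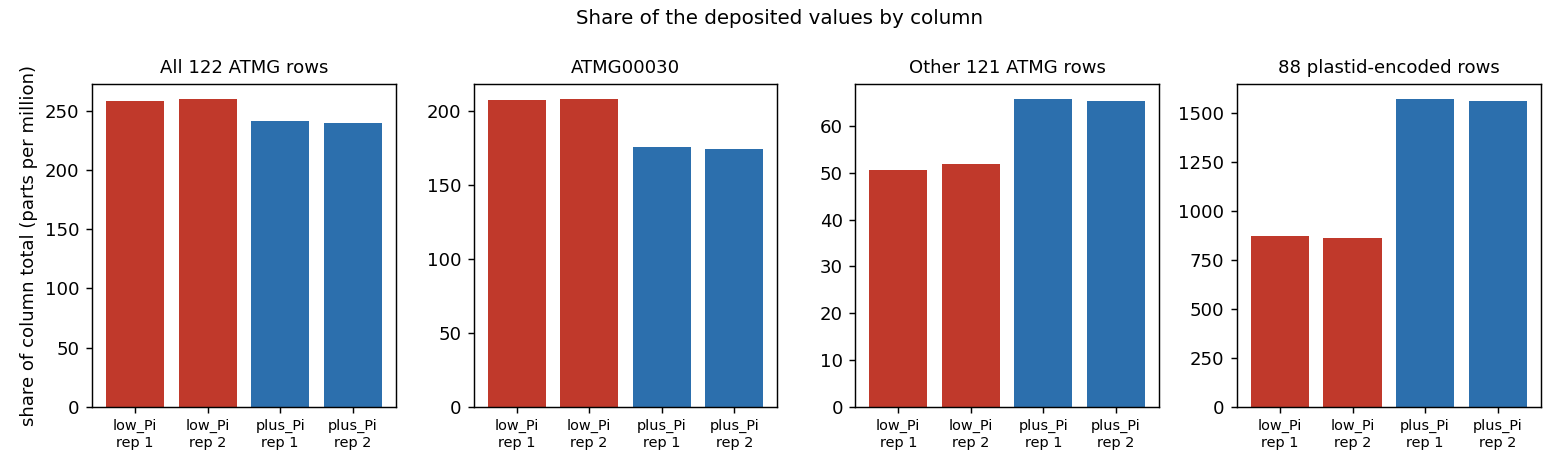
Share of the column total, in ppm, for all 122 mitochondria-encoded rows, for ATMG00030, for the other 121 rows and for 88 plastid-encoded rows; each bar is 1 column and each panel has its own scale. ATMG00030 is higher in both low_Pi columns (208 and 208 ppm) than in the plus_Pi columns (176 and 174), whereas the other mitochondrial rows and the plastid rows are lower.

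Many mitochondrial rows were empty. Of the 122 rows, 60 (49.2%) were 0 in all 4 columns and 33 more never exceeded 9. Only 13 rows had a mean of at least 41.5, which is 1 ppm of the mean column total and the level required of a gene for the comparison between groups. By comparison, 2 of 88 plastid-encoded rows were 0 in all columns, and 43 had such a mean.

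The rows differed by whether the annotation ties them to a nuclear gene. In the TAIR10.1 RefSeq annotation, notes on nuclear genes of chromosome 2 name 53 of the 122 identifiers, as the best protein match of a nuclear gene or as the gene from which a nuclear pseudogene derives. These notes are also the only source used here that describes any of the identifiers. Of the 53 rows, 33 were 0 in all columns, none reached a mean of 41.5 and the highest single value was 46. Together they held 0.607% and 0.613% of the mitochondrial sum in low_Pi and 1.12% and 0.887% in plus_Pi. Of the 69 rows not so named, 27 were 0 in all columns, and all 13 rows with a mean of at least 41.5 were among them.

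**Figure D2:**
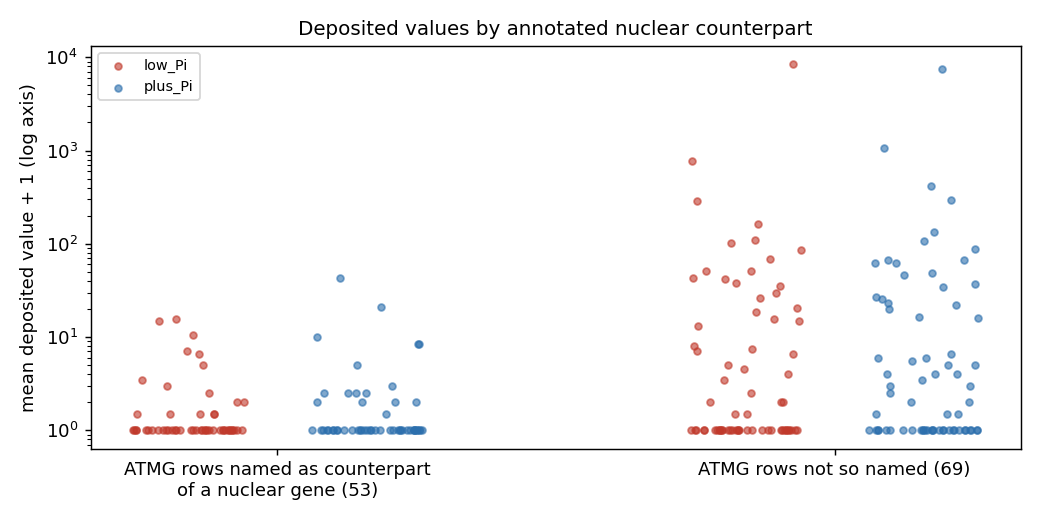
Mean deposited value plus 1 (log axis) in low_Pi and plus_Pi of each mitochondria-encoded row, separated into 53 rows named as the counterpart of a nuclear gene and 69 rows not so named; each point is 1 row, spread sideways for clarity. No row of the first kind exceeds 46 in any column, while 6 rows of the second kind reach at least 100 in some column.

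In TAIR10.1, 72.4% of the 367808 bases of the mitochondrial genome match chromosome 2 at an identity of at least 99% over at least 300 bases. Of its 33 annotated protein-coding genes, 24 lie at least 90% within such nuclear matches. The 8 without any were atp4, ccmB, cox1, cox2, nad4L, nad9, rpl16 and rps3. These names could not be joined to the identifiers of the table. Reads that fit a mitochondrial gene and a near-identical nuclear copy equally well cannot be told apart, and how the counting treated such reads is not given in the sources used here. The build behind the table is not given either, and the part of the nuclear copy in the low values was not tested.

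The rows with a described product include well-known mitochondrial genes, and these rows are uncertain for this reason. Rows without a description may be uncertain as well. The genes nad4, nad5, nad6 and nad7 also lie at least 90% within nuclear matches, and none of them is among the described products. Of 7 rows described as respiratory chain subunits, 5 were 0 in all columns, among them ATMG00220 (apocytochrome b, the core of complex III), ATMG00730 (cytochrome c oxidase subunit 3) and ATMG00990 (NADH dehydrogenase 3). ATMG01320 (NADH dehydrogenase 2B, part of complex I) had 15 and 13 in low_Pi columns against 46 and 38 in plus_Pi columns, a share 0.348 times the plus_Pi share. Its nuclear counterpart, AT2G07689, was 0 in every column. ATMG01280 (described as like cytochrome c oxidase subunit 2) had 3 and 2 in low_Pi columns and was listed at 0 in plus_Pi. ATMG01320 and ATMG01280 were singled out after their values were seen.

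The rows described as ATP synthase or ribosomal proteins were near 0; other genes of these kinds may be among the rows without a description. The 5 described ATP synthase rows summed to 10 and 19 in low_Pi columns against 11 and 12 in plus_Pi columns. Among them, ATMG01190 (subunit 1, the alpha subunit) had 6 and 5 against 8 and 7, while its nuclear counterpart AT2G07698 had 28 and 20 against 34 and 48. The 4 described ribosomal protein rows summed to 3 and 2 in low_Pi columns and to 3 and 2 in plus_Pi columns. The 3 rows for cytochrome c maturation summed to 6 and 4 against 13 and 7. No order between the groups can be read from values of this size.

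Between the groups, none of the 13 mitochondrial rows with a mean of at least 41.5 reached a 2-fold difference on the scale used for all genes. Differences per gene are given as low_Pi minus plus_Pi on the scale log2(value + 41.5), averaged over the columns of a group, which understates the differences of low values. Of the 13 rows with a mean of at least 41.5, which are not all mitochondrial rows, 0 were at least 2-fold lower and 0 at least 2-fold higher, where 4.47% and 4.58% of all 18729 genes were. At 1.5-fold, 2 of the 13 were lower and 0 higher, against 20.7% and 8.77% of all genes. The median over the 13 rows was -0.19, with a range of -0.71 to 0.22, and the median of all genes was -0.26. With median-of-ratios scaling these medians were -0.01 and 0.00.

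Column ranges of the 2 groups were nonetheless separate for most of these rows. In 8 of 13 rows both low_Pi values lay below both plus_Pi values, and in 4 both lay above. Such separation was common, at 62.5% of all genes for low_Pi below and 21.9% for low_Pi above. None of the 13 identifiers has a role in the annotation used here, and their lengths are not given, so values are compared between groups and not between genes. Which of the 13 rows could share reads with the nuclear copy cannot be told either, because gene names could not be joined to identifiers.

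ATMG00060 had the lowest difference of the 13. It had 160 and 163 in low_Pi columns against 278 and 303 in plus_Pi columns, a share ratio of 0.587 and a log2 difference of -0.71. ATMG01370 had 42 and 40 in low_Pi columns against 81 and 93 in plus_Pi columns, a share ratio of 0.497 and a log2 difference of -0.64. In both rows both low_Pi values lay below both plus_Pi values, but the columns of a group give no replicate check. The log2 difference of ATMG01370 depended on the pseudocount, at -1.01 with 0.1 ppm and -0.24 with 5 ppm, and was thus past 2-fold in the first of these.

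Further rows were lower in low_Pi by less. ATMG00160 had 305 and 273 in low_Pi columns against 402 and 427 in plus_Pi columns (log2 difference -0.47). ATMG00090, the row with the next largest values after ATMG00030, had 783 and 757 in low_Pi columns against 996 and 1114 in plus_Pi columns (log2 difference -0.43). ATMG00070 had 43 and 40 against 59 and 73 (log2 difference -0.37). The groups did not overlap in any of these 3 rows, and with median-of-ratios scaling their differences were -0.22 for ATMG00160, -0.17 for ATMG00090 and -0.21 for ATMG00070. ATMG00510 had 110 and 107 against 120 and 146 (log2 difference -0.21), and ATMG00690 had 48 and 53 against 57 and 66 (log2 difference -0.16). Their columns were separate as well, but with median-of-ratios scaling the differences were -0.01 for ATMG00510 and 0.00 for ATMG00690.

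The 4 rows with both low_Pi values above both plus_Pi values showed small differences. ATMG01360 had 85 and 83 in low_Pi columns against 67 and 66 in plus_Pi columns, a share ratio of 1.33 and the highest log2 difference of the 13, at 0.22. For ATMG00030 the log2 difference was 0.17, or 0.45 with median-of-ratios scaling. ATMG00080 had 67 and 69 against 58 and 63 (log2 difference 0.10), and ATMG00513 had 52 and 47 against 45 and 45 (0.07). In ATMG00660 the groups overlapped, with 101 and 102 in low_Pi columns and 100 and 113 in plus_Pi columns. Its log2 difference was -0.05, or 0.15 with median-of-ratios scaling. ATMG00580, the last of the 13, had 34 and 40 in low_Pi columns against 42 and 54 in plus_Pi columns (log2 difference -0.19, or -0.04 with median-of-ratios scaling).

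**Figure D3:**
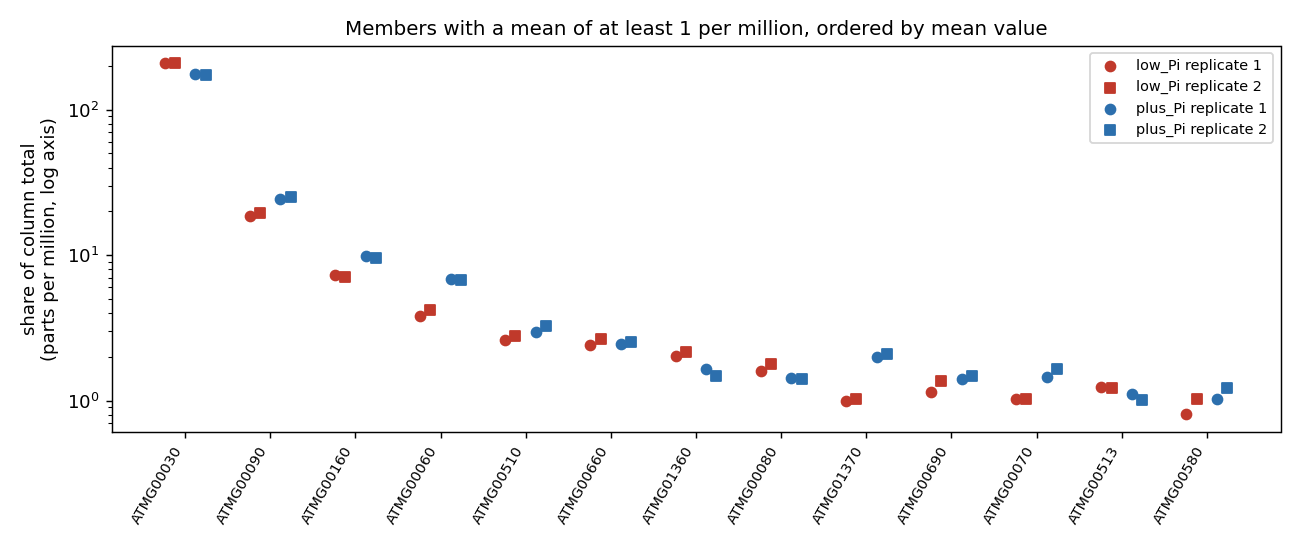
Share of the column total, in ppm on a log axis, of the 13 mitochondria-encoded rows with a mean of at least 1 ppm, ordered by mean value; each point is 1 column. ATMG00060 and ATMG01370 show the widest gap, with low_Pi below plus_Pi, and ATMG00660 shows groups that overlap.

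Below a mean of 41.5, 49 rows had at least 1 value above 0. In 19 of these both low_Pi values lay below both plus_Pi values, in 7 above, and in 23 the groups overlapped. Of all 4078 genes above 0 and under the required mean, 45.9% were separate with low_Pi lower and 34.8% with low_Pi higher. Examples chosen after their values were seen are ATMG01130, with 16 and 12 in low_Pi columns and listed at 0 in both plus_Pi columns, and ATMG00110, with 15 and 14 against 36 and 31. ATMG00516 had 42 and 26 in low_Pi columns against 21 and 17 in plus_Pi columns. The 2 low_Pi columns of ATMG00516 were farther apart than its lower low_Pi value was from the plus_Pi columns, so rows this low are given without an order.

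As an alternative to the size rule, limma over the 4 columns with Benjamini-Hochberg adjustment, called 8 of the 13 rows lower and 1 higher in low_Pi, against 52.0% and 17.1% of all genes. With the replicate number as a block it called 3 lower and 0 higher, against 28.0% and 10.5%. No label says that the libraries of a group came from separate cultures, so these p-values reflect how far the columns of a group were apart, which may be technical.

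Nuclear genes for the respiratory chain and ATP synthase (complexes I to V) had medians near 0, above the median of all genes. Of 66 listed subunit and assembly genes of complexes I to V, 64 had a mean of at least 41.5. Of these 64, 0 were at least 2-fold lower and 0 at least 2-fold higher, against 4.47% and 4.58% of all genes. Their median log2 difference was -0.06, which is 0.20 above the median of all genes, with a range of -0.58 to 0.65. In 21 of the 64 both low_Pi values lay below both plus_Pi values and in 10 above, against 62.5% and 21.9% of all genes. By complex the medians were -0.07 for complex I (17 genes), 0.09 for complex II (7 genes), 0.00 for complex III (14 genes), -0.10 for complex IV (13 genes) and -0.08 for complex V (13 genes). With median-of-ratios scaling each of these 5 medians was above 0, between 0.17 and 0.35.

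Examples came from every complex. For complex I, which oxidises NADH, EMB1467 (AT5G37510) averaged 14490.5 in low_Pi and 13913.5 in plus_Pi (log2 difference 0.06), and CI51 (AT5G08530) stood at -0.01. In complex II, succinate dehydrogenase, SDH1-1 (AT5G66760) was at -0.05 and SDH2-1 (AT3G27380) at 0.30. For complex III, which passes electrons to cytochrome c, MPPBETA (AT3G02090) was at 0.03 and AT1G51980 at -0.01; both proteins also serve as mitochondrial processing peptidase. In complex IV, cytochrome c oxidase, AT4G37830 was at -0.18 and COX6B (AT1G22450) at -0.32. The ATP synthase beta subunit genes AT5G08670 and AT5G08690 were at 0.01 and -0.08, and are uncertain because near-identical copies can share reads. The ends of the range, named after their values were seen, were AT5G13440, for an iron-sulfur subunit of complex III, with 10288 and 9402 in low_Pi columns against 5961 and 6558 in plus_Pi columns (0.65), and AT5G61310, of the subunit Vc family of complex IV, with 384 and 354 against 558 and 590 (-0.58). AT1G32710 was 0 in every column, and SDH2-3 (AT5G65165), with 22 and 22 in low_Pi columns against 1 and 2 in plus_Pi columns, was under the required mean.

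Nuclear genes for mitochondrial transcription, RNA processing and DNA maintenance were lower in low_Pi than those for the complexes. Of 29 listed genes, 28 had a mean of at least 41.5, with a median log2 difference of -0.63, which is -0.38 relative to the median of all genes. In 27 of the 28 both low_Pi values lay below both plus_Pi values, against 62.5% of all genes. At least 2-fold lower was 1 of the 28, or 3.57%, and 0 were 2-fold higher, against 4.47% and 4.58% of all genes. The 1 gene was AT5G14580, for polyribonucleotide nucleotidyltransferase, which degrades and trims mitochondrial RNA. It had 495 and 458 in low_Pi columns against 995 and 1084 in plus_Pi columns (log2 difference -1.06). With median-of-ratios scaling it stood at -0.80, and with a pseudocount of 5 ppm at -0.87, both under 2-fold.

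Other members of this list, named after their values were seen, spanned its functions. MGP3 (AT1G68990), for the phage-type RNA polymerase that transcribes the mitochondrial genome, had 818 and 762 in low_Pi columns against 1448 and 1574 in plus_Pi columns (log2 difference -0.90). The RNA editing factor gene MORF1 (AT4G20020) was at -0.76, the intron maturase gene nMAT1 (AT1G30010) at -0.62, and the helicase genes PMH1 (AT3G22310) and PMH2 (AT3G22330) at -0.75 and -0.48. MSH1 (AT3G24320), which limits recombination of the mitochondrial genome, was at -0.72, and POLGAMMA1 (AT3G20540) and POLGAMMA2 (AT1G50840) were at -0.64 and -0.69. Other genes of DNA maintenance differed less, with RECA3 (AT3G10140) at -0.32, OSB1 (AT1G47720) at -0.33 and RAD52-1 (AT1G71310) at -0.33. With median-of-ratios scaling these stood at -0.06 for RECA3, -0.08 for OSB1 and -0.08 for RAD52-1, and MSH1 at -0.47. OTP43 (AT1G74900), a splicing factor gene, was the only one above 0, at 0.03, with 121 and 121 in low_Pi columns and 109 and 127 in plus_Pi columns. AT1G74120, at -0.23 or 0.00 with median-of-ratios scaling, also lay above the median of all genes (-0.26). AT1G74350, a maturase gene, was 0 in every column.

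Pentatricopeptide repeat (PPR) proteins bind RNA in mitochondria and plastids and guide its editing, splicing and trimming. Some genes with such a product name, such as OTP43 (AT1G74900), are also in the list of mitochondrial gene expression. Of 278 genes with such a product name, 226 had a mean of at least 41.5, with a median log2 difference of -0.48. In 194 of these both low_Pi values lay below both plus_Pi values and in 11 above, against 62.5% and 21.9% of all genes. At least 2-fold lower were 4 genes, or 1.77%, and 0 were 2-fold higher, against 4.47% and 4.58% of all genes. The 4 were AT5G46580 (-1.09), AT1G73710 (-1.03), AT4G21880 (-1.03) and AT5G04780 (-1.03), the last named beyond the rule after its value was seen, and none of them was 2-fold apart with median-of-ratios scaling.

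**Figure D4:**
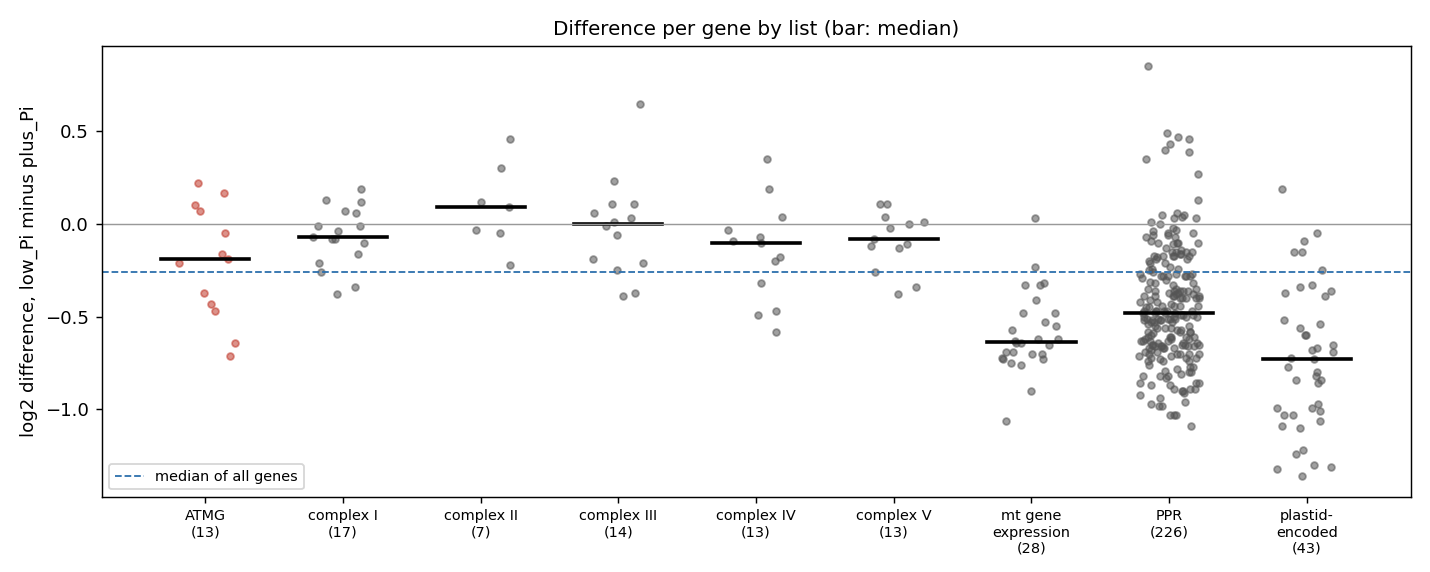
Log2 difference, low_Pi minus plus_Pi, per gene for mitochondria-encoded rows, nuclear genes of complexes I to V, nuclear genes of mitochondrial gene expression, PPR genes and plastid-encoded genes, each with a mean of at least 41.5; numbers in brackets are genes, thick lines are medians and the dashed line is the median of all genes (-0.26). Some PPR genes are also in the gene expression list. At these settings the mitochondria-encoded median (-0.19) lies near that of all genes, below the complexes and above the gene expression, PPR and plastid lists. Its place below the complexes depended on pseudocount and filter. It was -0.06 against -0.05 for complexes I to V together with a pseudocount of 5 ppm, and -0.03 against -0.05 with no filter.

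Plastid-encoded genes, the other organellar set, differed more. Their 88 rows held 870.87 and 862.57 ppm in low_Pi columns against 1570.15 and 1560.24 in plus_Pi columns, a share ratio of 0.554, where that of the mitochondrial rows was 1.08. The 43 plastid rows that reached the required mean had a median log2 difference of -0.73, and 12 (27.9%) were at least 2-fold lower, against 4.47% of all genes. ATCG01050 (-1.36), ATCG00760 (-1.32) and ATCG00740 (-1.31) were the lowest at these settings. The difference of ATCG01050 depended on the pseudocount, at -1.86 with 0.1 ppm and -0.64 with 5 ppm. With 5 ppm, ATCG00760 was at -1.06 and ATCG00740 at -1.18. The difference between both organellar sets was not tested. The nuclear counterparts of the mitochondrial rows, as a set of 46 rows, summed to 72 and 72 in low_Pi columns against 128 and 135 in plus_Pi columns. Identifiers AT2G07667 to AT2G07835, a range listed for the chromosome 2 copy, gave 68 rows. Only MCM5 (AT2G07690, log2 difference -0.45) and ABCC13 (AT2G07680, -0.73) of these had a mean of at least 41.5, and neither is named as a counterpart of a mitochondrial gene.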

How the data were processed

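Per the labels' protocols, DNase-treated root RNA was selected with oligo(dT) beads, fragmented and sequenced on Illumina instruments. HISAT2, HTSeq, edgeR, FastQC and CASAVA 1.4 are named, without roles, per the submitters' processing notes, and the build is not given in the sources used here. The score values deposited by the authors are called normalized counts in the name of their table and are whole numbers; how they were normalized is not stated. The depth behind them is unknown, so no count model, interval or floor was used. The column 5Pi_R2 was matched by name to its group only.

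Members, lists and rules were chosen with earlier results of these data known. Shares are of the column total. Log2 differences used a pseudocount and a filter on the mean of 41.5. The size rule was 2-fold. Named members were the 10 with the highest mean and, among the 13 past the filter, the 5 lowest and 5 highest differences; list genes were up to 3 that were 2-fold apart, or else the 2 with the highest mean. Product names of the RefSeq annotation chose the PPR genes. The 4 nuclear ribosomal RNA identifiers listed were not among the deposited rows and so were not analysed. limma 3.58.1 in R 4.3.3 was an alternative, tested on simulated data, as was the log2 difference. blastn 2.17.0 compared the TAIR10.1 mitochondrial and nuclear sequences. Alternatives covered pseudocount, filter, scaling, fold size, denominators and omission of each library; trimmed-mean scaling was unweighted.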

Additional observations from a re-analysis of the deposited data

How the results depend on the processing

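Leaving out each library in turn gave 0 to 0 mitochondrial rows at 2-fold in either direction. The medians of complexes I, IV and V, and of complexes I to V together, changed sign with scaling. The values rest on groups counted as 1 sample each, an unstated normalization and selected poly(A) RNA, and rows near 0 allow no comparison. The count at least 2-fold lower was 1 (ATMG01370) with a pseudocount of 0.1 ppm or a ratio of group means, and 2 at 1.5-fold. limma called 8 lower and 1 higher with no replicate block, and 3 and 0 with the replicate block; no label ties equal replicate numbers, whose deviations correlated at -0.11 across genes. The mitochondrial median was -0.06 with a pseudocount of 5 ppm, -0.03 with no filter and -0.45 with a filter at 5 ppm. The cause of these shifts was not tested.

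Median-of-ratios and trimmed-mean scaling gave the same medians and share ratio to 2 decimals, and moved the median of all genes to 0.00. Under either, the mitochondrial median was -0.01 and the share ratio 1.24, and medians were 0.22 for complexes I to V together, 0.21, 0.35, 0.28, 0.17 and 0.19 for complexes I, II, III, IV and V, -0.38 for mitochondrial gene expression, -0.26 for PPR and -0.55 for plastid-encoded genes. Without ATMG00030 the share ratio was 0.78. Complex II stood at 0.16 with a common column total. With pseudocounts of 0.1 and 5 ppm, PPR stood at -0.58 and -0.26 and plastid-encoded genes at -0.90 and -0.46, and mitochondrial gene expression at -0.45 with the larger. Ratios of group means gave -0.60 for PPR and -0.92 for plastid-encoded genes, which stood at -0.42 with no filter and -0.99 with a filter at 5 ppm.

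Leaving out each library gave ranges of -0.28 to -0.10 for the mitochondrial median, 1.07 to 1.08 for the share ratio, -0.13 to 0.02 for complexes I to V, -0.14 to 0.00, 0.03 to 0.06, -0.06 to 0.07, -0.17 to -0.04 and -0.15 to -0.02 for complexes I, II, III, IV and V, -0.69 to -0.57 for mitochondrial gene expression, -0.54 to -0.42 for PPR and -0.83 to -0.71 for plastid-encoded genes. Of all main values under the alternatives, 116 stayed within the spread between columns and 44 moved beyond it. This spread is not one between replicates known to be independent. For the counts of rows at 2-fold it was 0, so any change counted as moved, and limma calls were set against these counts. The 116 and 44 are thus no measure of how reliable the results are.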
